A study of Mus musculus with 12 samples.

Results

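The 10 genes described here encode lysosomal cathepsins: Ctsa, Ctsb, Ctsc, Ctsd, Ctsf, Ctsh, Ctsk, Ctsl, Ctss and Ctsz. They were taken by symbol from a list of names, and all 10 were among the 12339 genes of the deposited table. Macrophages had been drawn into the mouse peritoneum with thioglycolate, a sterile irritant, and collected by lavage, and their RNA was sequenced in 12 libraries. The 4 groups had 3 libraries each: WT mice on chow, WT mice on a high-fat "Western" diet (HFD), meKO mice on chow and meKO mice on HFD. From the title of the series, which is about protein kinase C epsilon in myeloid cells, meKO is taken to be a myeloid knockout of the gene for that kinase, Prkce; the labels name neither the Cre line nor the deleted exons. Mice of both genotypes and both diets were given AAV8PCSK9 at 8 weeks of age, a virus that depletes the LDL receptor from hepatocytes, so the chow groups carried it too. Cells were harvested 4 weeks later. Nothing in the labels says whether a library came from 1 animal or from a pool, and p-values measure the spread between these libraries.

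Cathepsins are the proteases of the lysosome. They are made as inactive precursors, tagged with mannose 6-phosphate in the Golgi, carried to the lysosome by receptors and activated there by removal of a propeptide. Most are cysteine proteases, Ctsd is an aspartic protease and Ctsa a serine carboxypeptidase. Macrophages are rich in them and use them to degrade ingested material, to trim antigens and the invariant chain, and, when they are secreted, to cleave matrix proteins such as elastin and collagen.

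Transcription factors of the MiT/TFE family (Tfeb, Tfe3, Mitf) bind a palindromic core, CACGTG, in the promoters of many lysosomal genes. The 6 sites below are shown because they are the places where this core lies in the promoter windows of cathepsins; Ctsa and Ctsd have a pair each. Windows of 300 bases, from 250 before to 50 after a listed start, came from RefSeq (GRCm38.p6) for 8 of the 10 genes, as 9 windows; Ctsb and Ctsh had no window in the table. Each sequence is written 5′ to 3′ on the gene's strand, with the core in capitals.
Ctsd, site nearer the start: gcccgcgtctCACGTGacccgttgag
Ctsd, farther site: tccccCACGTGacctgtatcc
Ctsa, site before the start: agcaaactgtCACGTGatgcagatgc
Ctsa, site after the start: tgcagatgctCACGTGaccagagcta
Ctsf: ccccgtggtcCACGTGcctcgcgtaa
Ctsl: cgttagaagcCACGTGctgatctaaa
The nearer Ctsd site was at chr7:142387910-142387935 on the minus strand, its core 98 bases upstream of the start, and the farther one at chr7:142388057-142388077, 245 bases upstream, where the window's edge shortens the flank. The first Ctsa site, at chr2:164833751-164833776 on the plus strand, was 12 bases upstream of a listed start that lies inside the annotated gene. The other Ctsa site, at chr2:164833768-164833793, had its core at -5 on the same count, that is, after the start. The Ctsf site was at chr19:4855076-4855101 on the plus strand, 79 bases upstream. The Ctsl site was at chr13:64370741-64370766 on the minus strand, 236 bases upstream of a listed start, which places it inside the outer bounds of the annotated gene. CACGTG, which reads the same on both strands, was found in 4 of the 9 cathepsin windows and in 7.15% of all 32851 windows. The longer form GTCACGTGA, which contains CACGTG, was found on either strand in the windows of Ctsa and Ctsd and in 0.782% of all windows. GAGGAAGT, a core bound by the myeloid factor PU.1, was in the windows of Ctsc and Ctss and in 3.2% of all windows, searched on both strands. TGANTCA, a core bound by AP-1, was in no cathepsin window and in 7.81% of all windows, searched on both strands. These are matches of letters in a window, and binding was not measured.

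Library totals ran from 25844958 to 37282772 counts. As a check of the labels, Prkce was at 3.08 ± 1.03 CPM (the usual counts-per-million unit, with TMM scaling of the library totals; SD, n = 6) in WT and 1.37 ± 0.347 CPM (SD, n = 6) in meKO, without overlap (exact two-sided permutation p = 0.00216). Lyz2, the lysozyme gene often used to drive Cre in myeloid cells, was at 69.3 CPM in meKO chow library 2 and at 16293 to 21309 CPM in the other meKO libraries, against 30482 to 53835 CPM in WT. Macrophage markers other than Lyz2 (Adgre1, Cd68, Csf1r, Itgam, Cd14 and Mertk) summed to 4796 to 6117 CPM over the 12 libraries, and each was detected in every library. The sum joins markers that moved both ways. Of the 7 with Lyz2, edgeR called 1 higher and 4 lower with HFD averaged over genotypes (adjusted p under 0.05). Of all genes 14.9% rose and 15.3% fell in that comparison. Libraries differed in how counts depended on transcript length: long transcripts were raised in WT chow libraries 1 and 2 (Spearman rho across 11532 genes 0.64 and 0.68) and not in WT chow library 3 (-0.04) or the other 9 libraries (-0.47 to 0.14). Fold changes depended on length in every comparison, also in those without the WT chow group. For genotype, Spearman rho with length was -0.64 on chow and -0.26 on HFD, and for diet it was -0.58 in WT and -0.34 in meKO. Genes are not independent replicates, and these values are descriptions. All comparisons were also fitted after a correction for transcript length and GC content, and corrected values are given beside the calls they concern.

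The cathepsins made up a large part of the macrophage transcriptome, and their share of all counts was larger in meKO. Together the 10 genes took 7.42% to 8.49% of all counts in the 6 WT libraries and 8.63% to 9.80% in the 6 meKO libraries, with no overlap; counting error is far smaller, at 7.41% to 7.43% for the lowest library (95% Wilson interval, which covers counting error only). By group the share was 7.88% ± 0.403 in WT on chow, 8.34% ± 0.138 in WT on HFD, 9.40% ± 0.350 in meKO on chow and 8.96% ± 0.284 in meKO on HFD (SD, n = 3). Ctsb, Ctsd, Ctss and Ctsl accounted for 92.8% to 93.9% of these counts in each library. The total behind these shares includes Lyz2, at 30482 to 53835 CPM in WT and at most 21309 CPM in meKO. A lower Lyz2 count by itself raises the share of every other gene. The share without Lyz2 was not computed, so the lack of overlap is given only for totals that include Lyz2. The gap at the edge was small, with 8.49% as the highest WT share and 8.63% as the lowest meKO share. In bulk RNA, a change in the number of cells of a type and a change in RNA per cell cannot be told apart.

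Per kilobase of the longest RefSeq-linked transcript, so that genes can be compared, the levels fell into tiers. Ctss, an elastase and the main protease of invariant chain processing, and Ctsd, the aspartic protease, shared the top with 11958 ± 1531 and 11958 ± 1557 CPM per kb (SD, n = 12); Ctss was above Ctsd in 6 of 12 libraries, so their order is not resolved. Ctsl, a cysteine endopeptidase, was at 5970 ± 1239.9 and Ctsb, which acts both as an endopeptidase and as an exopeptidase, at 5783 ± 438. Those 2 genes were also not ordered over all libraries, and their order differed between groups: Ctsl was above Ctsb in 0 of 3 WT chow libraries, 2 of 3 WT HFD, 2 of 3 meKO chow and 3 of 3 meKO HFD libraries. Long transcripts were raised in WT chow libraries 1 and 2, and the Ctsb transcript, at 4743 nt, is longer than the 1971 nt one of Ctsl. Below them came the exopeptidase Ctsz at 1303 ± 148 CPM per kb, above the next gene in 12 of 12 libraries. The aminopeptidase Ctsh (606 ± 83.1), the carboxypeptidase Ctsa (526 ± 44.3) and the collagenase Ctsk (434 ± 98) followed, each above the next in 9 of 12 libraries between Ctsh and Ctsa and between Ctsa and Ctsk. Ctsc, which activates granule serine proteases, was at 117 ± 12.5, and Ctsf, a cysteine protease, at 3.59 ± 0.712 CPM per kb. With the shortest RefSeq transcript in place of the longest, Ctsa was at 757 CPM per kb, above Ctsh. With the longest coding transcript of Ctsl, 6168 nt in place of 1971, Ctsl was at 1908 ± 396 CPM per kb (SD, n = 12), below Ctsb and above Ctsz in all 12 libraries, so the place of Ctsl beside Ctsb and their change of order across groups hold only for the 1971 nt transcript.

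**Figure D1:**
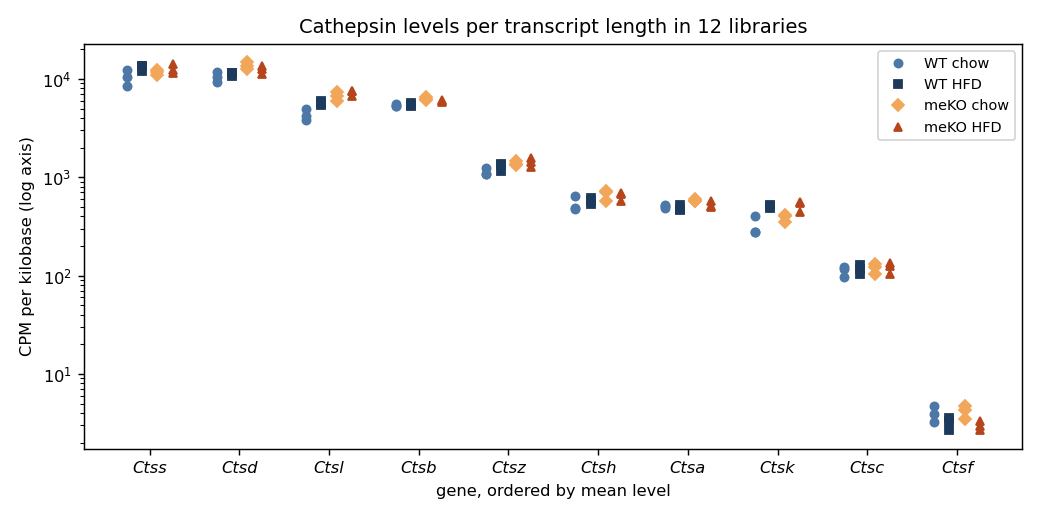
Level of each cathepsin in CPM per kilobase of transcript (log axis), with 1 point per library, coloured by group; genes are ordered by their mean over 12 libraries. Ctss and Ctsd lie together at the top, Ctsl (with its 1971 nt transcript) and Ctsb below them, and Ctsf lies far below the rest at 2.67 to 4.77 CPM per kb.

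Ctsl was the cathepsin that differed most between the genotypes. Its values were 7496, 9688 and 8261 CPM in WT on chow, 11097, 11859 and 10639 in WT on HFD, 13079, 14385 and 11878 in meKO on chow, and 13196, 14809 and 14806 in meKO on HFD. Every meKO library was above every WT library, although by little at the edge: the lowest meKO value was 11878 and the highest WT value 11859 CPM. Averaged over the diets, Ctsl was 1.40-fold higher in meKO (log2 fold change 0.49 ± 0.09 SE, edgeR quasi-likelihood adjusted p = 0.0413 over all genes). That call was made for 21 of 12339 genes, a background of 0.17%. It was 1 of 10 cathepsins called, and the only one that edgeR called in any genotype comparison over all 12 libraries with TMM scaling.

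Within each diet the Ctsl difference did not pass. On chow the log2 fold change was 0.63 ± 0.12 (SE; edgeR adjusted p = 0.076), and on HFD it was 0.35 ± 0.12 (adjusted p = 0.890); the difference between these effects was -0.28 with a 95% interval from -0.62 to 0.06 (edgeR adjusted p of the interaction 0.812). With the length and GC correction the chow value was 0.44 (adjusted p = 0.166) and the difference between the effects -0.14 (adjusted p = 0.907). The averaged call passed in 12 of 23 alternative fits, with adjusted p from 4.91e-06 to 0.131. It was kept without WT chow library 3 or meKO HFD library 1 and lost without any other single library (adjusted p 0.056 to 0.119). After the length and GC correction the averaged value was 0.37 (adjusted p = 0.131, background 0.165%), and with a transcript of 6168 instead of 1971 nt taken for Ctsl it was 0.64 (adjusted p = 0.00966), so the result of that correction depends on which Ctsl transcript is counted.

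Ctsl was also set against Ctsd, whose transcript of 2127 nt is close in length to the 1971 nt transcript of Ctsl and not to the 6168 nt one. Counts of Ctsl per count of Ctsd were 0.332 to 0.436 in WT on chow and 0.443 to 0.459 in meKO on chow, which do not overlap. On HFD they were 0.433 to 0.523 in WT and 0.516 to 0.557 in meKO, which overlap. The ratio to Ctss was 0.501 to 0.730 over the 6 WT libraries and 0.716 to 0.896 over the 6 meKO libraries, so a single pair of libraries overlapped. Within the cathepsin pool, Ctsl took 11.3% ± 1.13 of the counts in WT on chow, 13.3% ± 0.973 in WT on HFD, 13.9% ± 0.774 in meKO on chow and 15.5% ± 0.265 in meKO on HFD (SD, n = 3).

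Ctsb showed the same separation of genotypes with a smaller difference. It was at 24887, 26451 and 24944 CPM in WT on chow, 26859.9, 25913 and 25267 in WT on HFD, 29269, 31364 and 29793 in meKO on chow, and 27532, 28161 and 28723 in meKO on HFD. All 6 meKO libraries were above all 6 WT libraries, with 27532 CPM as the lowest meKO value and 26859.9 as the highest WT value. Averaged over diets the log2 fold change was 0.18 ± 0.07 (SE), a 1.13-fold difference that did not pass (edgeR adjusted p = 0.225). Separation of 6 from 6 libraries was found for 52 of all 12339 genes, or 0.421%, and for 2 of the 10 cathepsins, Ctsb and Ctsl. Ctsb has a long transcript (4743 nt), and its difference was larger, not smaller, after the length and GC correction (log2 0.30, adjusted p = 0.131). The gene overlaps Fdft1 by 774 nt, and whether counting used strand is not given in the sources used here.

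On chow, Ctsd and Ctsa were separated by genotype too. Ctsd was at 19560.0, 22242 and 24880.0 CPM in WT and 29099, 31325 and 26808 CPM in meKO (log2 0.39 ± 0.12 SE, edgeR adjusted p = 0.136). Ctsa, which protects lysosomal beta-galactosidase and neuraminidase in a complex, was at 1775, 1864 and 1908 CPM in WT and 2179, 2103 and 2070.1 in meKO (log2 0.20 ± 0.10, adjusted p = 0.282). Both sets of 3 lay wholly above the WT chow libraries, and neither difference passed. Ctsa overlaps Pltp by 1515 nt and Neurl2 by 725 nt, so reads of those genes could be counted with it. On HFD, Ctsd was at 24548, 22690.0 and 24565 CPM in WT and 23670.4, 28687 and 27139 in meKO, and Ctsa at 1715, 1904 and 1709 in WT and 1859, 1811 and 2113 in meKO; for both genes the groups overlapped.

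The exopeptidase Ctsz was also separated by genotype on chow. Ctsz was at 1549, 1562 and 1778 CPM in WT and 2103, 1906 and 1948 in meKO on chow (log2 0.29 ± 0.11 SE, edgeR adjusted p = 0.192). On HFD it was at 1674, 1906 and 1961 in WT and 1847, 2036 and 2263 in meKO, with overlap. Ctsh was at 765, 793 and 1035 CPM in WT and 925, 1152 and 1160.3 in meKO on chow (log2 0.32, edgeR adjusted p = 0.221), and its groups overlapped. Ctsh was at 934, 864 and 987 CPM in WT and 933, 1088 and 1120.1 in meKO on HFD. Ctsc overlapped on both diets, with 313 to 395 CPM in WT and 336 to 419 CPM in meKO on chow, and 333 to 417 and 333 to 437 CPM on HFD.

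Over the family, none of the 10 cathepsins passed in the genotype comparison on chow with edgeR, where 0.081% of all genes did; 5 had an unadjusted p under 0.05, against 19.8% of all genes. All 10 log2 fold changes were positive, with a median of 0.27 against -0.001 for all genes, of which 49.8% were positive. Libraries of 5 cathepsins (Ctsa, Ctsb, Ctsd, Ctsl and Ctsz) did not overlap, against 17.1% of all genes. With DESeq2, 3 cathepsins passed on chow (Ctsl, Ctsb and Ctsd), where 563 genes or 5.05% of those tested did; averaged over diets, DESeq2 called Ctsl and Ctsb, against 3.03% of genes. Leaving out WT chow library 3 brought the calls on chow from 10 to 2543 genes and from 0 to 5 cathepsins (Ctsl, Ctsz, Ctsk, Ctsd and Ctsh). After the length and GC correction 8 of 10 were positive, the median was 0.14, and 0 of 10 passed (background 0.0173%).

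On HFD, 0 of 10 cathepsins passed in edgeR (background 0.081%) and 1, Ctsl, had an unadjusted p under 0.05 (background 4.56%); DESeq2 called 0 of 10. Here 8 of 10 log2 fold changes were positive, with a median of 0.12 against 0.02 for all genes, of which 53.9% were positive. Ctsb and Ctsl did not overlap, against 10.3% of all genes. The interaction between genotype and diet was called for 0 of 10 cathepsins in edgeR and 0 in DESeq2 (background 0.0162%), with 0 at an unadjusted p under 0.05 (background 6.13%). All 10 interaction values were negative, where 52.9% of all genes were positive, from -0.28 for Ctsl to -0.03 for Ctsc; with the length and GC correction Ctsc was at 0.011 and Ctsk at -0.13. The genotype comparisons and the diet comparisons share these libraries: the WT chow group enters the chow genotype comparison, the WT diet comparison and the interaction.

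**Figure D2:**
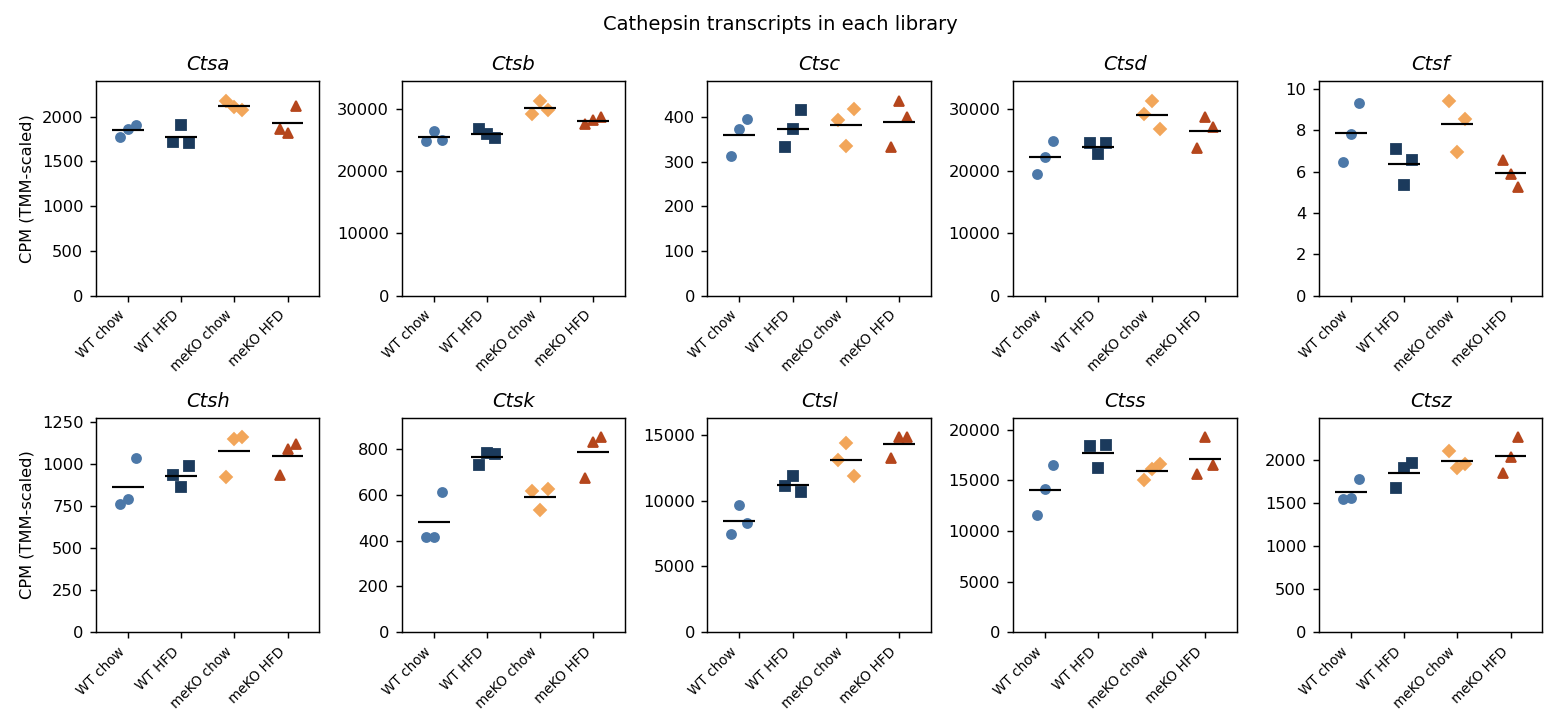
CPM of the 10 cathepsins in each of 12 libraries, with 1 point per library and a black line at the group mean; each vertical axis starts at 0. In Ctsl and Ctsb every meKO point lies above every WT point, and in Ctsk every HFD point lies above every chow point (675 CPM against 624 CPM at the edge).

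Averaged over the diets, 3 of 6 neutrophil markers in the table rose in meKO and 0 fell, where edgeR called 0.17% of all genes. These markers (of 9 listed) summed to 156 to 199.9 CPM in WT on chow, 164 to 192 in meKO on chow, 140.1 to 149.7 in WT on HFD and 170.2 to 185 in meKO on HFD, so the groups overlapped on chow and not on HFD. Ly6g, Camp and Ngp are not in the table, and no listed marker was at 0 in any library. Their part in the Ctsl and Ctsb values was not tested.

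**Figure D3:**
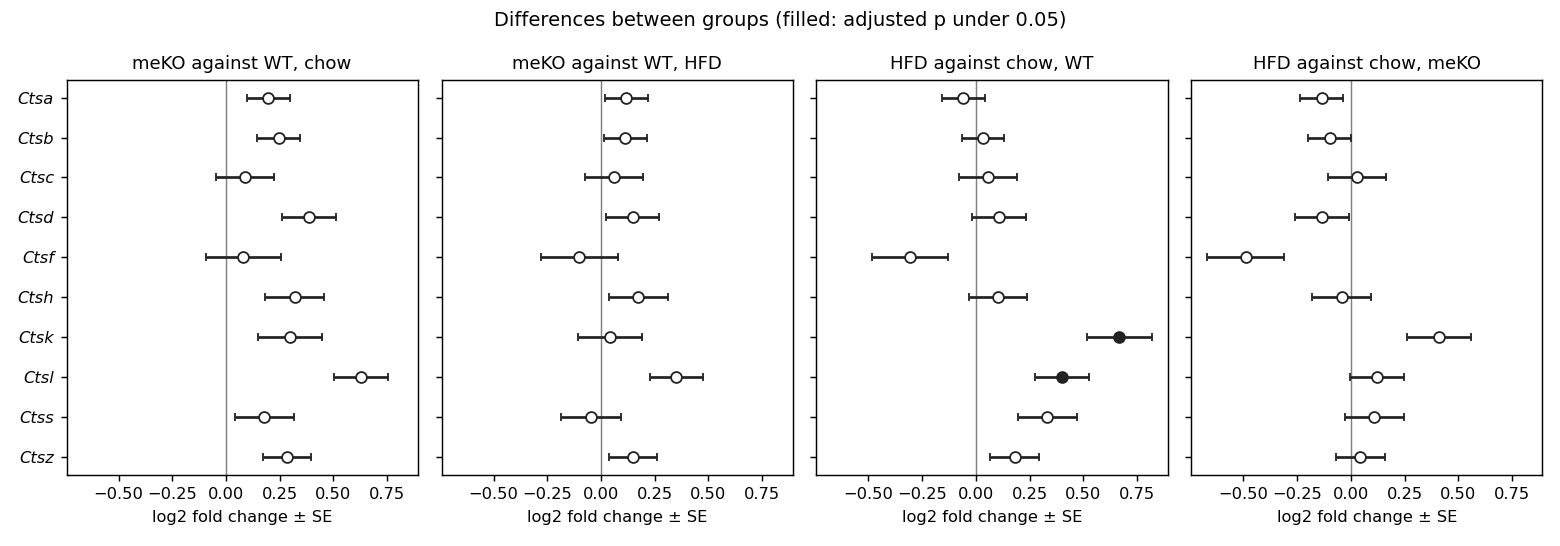
Log2 fold change (point) and its standard error (bar) of each cathepsin in 4 comparisons of 3 against 3 libraries; filled points have an edgeR adjusted p under 0.05. The filled points are Ctsk (0.67) and Ctsl (0.40) in the diet comparison of WT mice.

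Ctsk differed most with the diet. It is the collagen-degrading cathepsin best known from osteoclasts. Its values were 415, 416 and 611 CPM in WT on chow and 729, 784 and 779 CPM in WT on HFD. In meKO it was at 615, 534 and 624 CPM on chow and 675, 833 and 851 CPM on HFD. Every HFD library was above every chow library, in both genotypes and across them. Ctsk rose 1.59-fold on HFD in WT (log2 0.67 ± 0.15 SE, edgeR adjusted p = 0.0158), where 9.5% of all genes rose and 11.8% fell. Averaged over genotypes it rose 1.45-fold (log2 0.54 ± 0.11 SE, edgeR adjusted p = 0.00622), where 14.9% of genes rose and 15.3% fell. It was the 1 cathepsin of 10 whose 6 HFD and 6 chow libraries did not overlap, against 5.76% of all genes.

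The averaged Ctsk call passed in 23 of 23 alternatives, with log2 fold changes from 0.31 to 0.67. In WT alone it passed in 21 of 24 and was lost without WT chow library 1 (edgeR adjusted p = 0.0878), WT chow library 2 (0.0716) or WT HFD library 3 (0.0761). The length and GC correction lowered it to 0.39 in WT, with the call kept (adjusted p = 0.0347, background 12.4%), and the averaged value to 0.32 (adjusted p = 0.0112, background 23.5%). In meKO the value was 0.41 ± 0.15 and did not pass (edgeR adjusted p = 0.252), and the difference between the genotypes' responses was -0.26 with a 95% interval from -0.67 to 0.16. WT chow library 3, at 611 CPM, stood above the other WT chow libraries and level with the meKO chow libraries.

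Mesothelial and fibroblast markers were also higher with the diet within each genotype, and fibroblasts also express Ctsk. The 10 of 11 such markers in the table (Krt18 is not in it) summed to 52.3 to 92.8 CPM in WT on chow and 94.1 to 140.2 CPM in WT on HFD. In meKO the sums were 52.1 to 97 CPM on chow and 113 to 140.9 CPM on HFD. The order of libraries within each group is given as a description only, since a group holds 3 libraries. In WT on chow and in meKO on chow, library 3 had the lowest sum and the highest Ctsk. In meKO on chow that Ctsk order was nearly a tie, with 624 CPM in library 3 and 615 CPM in library 1. In WT on HFD, library 1 had the highest sum and the lowest Ctsk, and in meKO on HFD library 1 had the lowest of both. Averaged over genotypes, 4 of these 10 markers rose with HFD and 0 fell, where 14.9% of all genes rose and 15.3% fell. None of the 10 was at 0 in any library. Their part in the Ctsk result was not tested.

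Ctsl also rose with HFD in WT, from 8482 ± 1112 to 11199 ± 616 CPM (SD, n = 3; log2 0.40 ± 0.12 SE, edgeR adjusted p = 0.0372). The highest WT chow library (9688) was below the lowest WT HFD library (10639). In meKO the groups overlapped, at 13114 ± 1254 CPM on chow and 14270.1 ± 931 on HFD (log2 0.12 ± 0.12, edgeR adjusted p = 0.632). Averaged over genotypes the log2 fold change was 0.26 ± 0.09 (adjusted p = 0.0382). The WT call passed in 16 of 24 alternatives and the averaged call in 13 of 23. Corrected for length and GC, they were 0.16 (edgeR adjusted p = 0.422) and 0.09 (adjusted p = 0.502), and with the 6168 nt transcript 0.64 and 0.41, both passing. The WT call was also lost without WT chow library 1 or 2 or any single WT HFD library, with adjusted p from 0.0627 to 0.147.

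Ctsf was the cathepsin that fell. It was at 6.45, 7.84 and 9.32 CPM in WT on chow and 7.12, 5.37 and 6.56 CPM in WT on HFD. In meKO it was at 9.45, 6.97 and 8.54 CPM on chow and 6.58, 5.87 and 5.28 CPM on HFD, without overlap. Averaged over genotypes the log2 fold change was -0.40 ± 0.13 (SE; edgeR adjusted p = 0.0313), and it passed in 16 of 23 alternatives; the 7 that lost it each left out 1 library (WT HFD 2 or 3, WT chow 2, meKO HFD 2 or 3, meKO chow 1 or 3; adjusted p 0.059 to 0.0729). Corrected for length and GC, it was -0.42. Neither genotype passed alone (WT -0.31, adjusted p = 0.213; meKO -0.49, adjusted p = 0.254). These values rest on 133 to 345 counts per library.

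Ctss, the elastase, was at 11542, 14132 and 16504 CPM in WT on chow and 18413, 16244 and 18454 CPM in WT on HFD, with 1 pair of libraries overlapping (log2 0.33 ± 0.14 SE, edgeR adjusted p = 0.0928). It passed in WT with DESeq2 and with voom and quality weights, which called 3438 and 6411 genes there. In meKO Ctss was at 15007, 16100.5 and 16601 CPM on chow and 15673, 19258 and 16516 CPM on HFD. Ctss has the shortest transcript of the 10 (1355 nt), and the WT value turned from 0.33 to -0.05 after the length and GC correction. The Ctss gene lies 17399 nt downstream of Ctsk on chromosome 3. Over the 12 libraries their log2 CPM had a Pearson r of 0.82, 1 of 45 pairs; the libraries share the length dependence described above.

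Over the family, 2 of 10 cathepsins rose and 0 fell with HFD in WT in edgeR, against 21.3% of all genes called. DESeq2 called 3 there (Ctsl, Ctsk and Ctss), among 3438 genes. Averaged over genotypes 2 rose (Ctsk and Ctsl) and 1 fell (Ctsf), against 30.2% of all genes, so the count of called cathepsins was near the background. In meKO edgeR called 0 of 10 (background 0.105%) and DESeq2 called 0; 2 had an unadjusted p under 0.05, Ctsk and Ctsf, against 15.9% of all genes. In meKO 3 cathepsins did not overlap between the diets (Ctsk higher, Ctsb and Ctsf lower), against 19.7% of all genes, and in WT 2 did not (Ctsk and Ctsl), against 39.3%. The median log2 fold change was 0.10 in WT and -0.01 in meKO, against -0.03 and -0.01 for all genes. With library totals in place of TMM factors, the called genes in WT split into 857 higher of 2741 instead of 1172 higher of 2634, and Ctsk alone of the cathepsins was called.

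**Figure D4:**
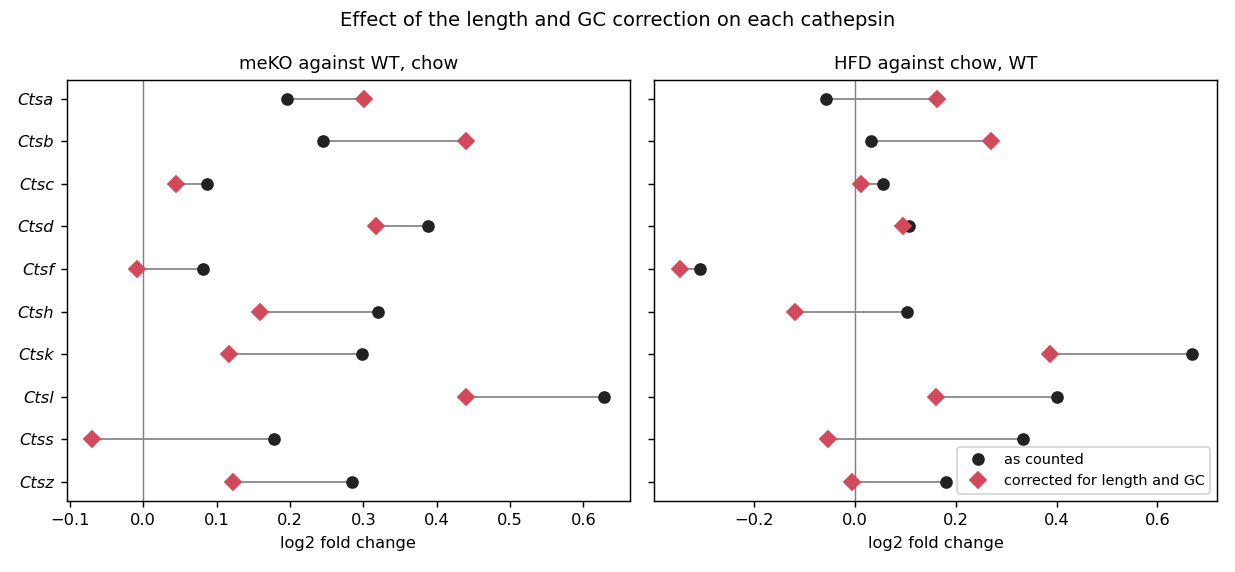
Log2 fold change of each cathepsin as counted (circles) and after a correction for transcript length and GC content (diamonds), for genotype on chow and for diet in WT. Ctss, the shortest transcript, moves to the left (0.33 to -0.05 with diet) and Ctsb, the longest, moves to the right (0.25 to 0.44 with genotype).

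Lists of related genes are read against all genes, of which 9.5% rose and 11.8% fell with HFD in WT, and 14.9% rose and 15.3% fell averaged over genotypes. The inhibitors that bind cathepsins rose with HFD where they passed. Of 8 inhibitor genes in the table (of 16 listed), 3 rose in WT and 0 fell: Cstb, the cytosolic cystatin B, from 508 ± 88.7 to 969 ± 122 CPM (log2 0.93 ± 0.21 SE, edgeR adjusted p = 0.0163), Cst3, the secreted cystatin C, from 577 ± 123 to 940.2 ± 101 CPM (log2 0.70 ± 0.19, adjusted p = 0.0245), and Serpinb6a, which was named after its value was seen. Their median log2 fold change was 0.72, against -0.03 for all genes. Averaged over genotypes 4 rose and 0 fell. With the length and GC correction the WT values were 0.36 for Cstb (edgeR adjusted p = 0.0404) and 0.35 for Cst3 (adjusted p = 0.0489). The WT count was 0 without WT HFD library 3, WT chow library 1 or WT chow library 2. In the genotype comparisons edgeR and DESeq2 each called 0 of the 8 inhibitors. At an unadjusted edgeR p under 0.05 there were 2 on chow (background 19.8%) and 1 on HFD (4.56%).

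Genes that sort cathepsins to the lysosome were split. Of 16 genes for mannose 6-phosphate tagging, receptors and adaptors, 4 rose and 6 fell with HFD in WT, against 9.5% and 11.8% of all genes. Sort1, a sorting receptor, was at 107 ± 28.9 CPM on chow and 56.4 ± 4.18 on HFD (log2 -0.93 ± 0.18 SE, edgeR adjusted p = 0.0109). The adaptors Gga3 (log2 -0.90, adjusted p = 0.00802) and Gga2 (log2 -0.79, adjusted p = 0.0111) fell with it. The median was -0.31. Corrected for length and GC, Sort1 was at -0.52, Gga3 at -0.63 and Gga2 at -0.49, each still passing, and the count of genes that rose was 2. Without WT HFD library 3 the counts were 0 and 0, without WT chow library 1 they were 0 higher and 1 lower, and without WT HFD library 1 they were 0 higher and 3 lower; the higher count was also 0 without WT chow library 2 and 2 without WT HFD library 2.

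Of 13 MiT/TFE factors and their nutrient-sensing regulators, 0 rose and 4 fell with HFD in WT, and 5 fell averaged over genotypes, against 11.8% and 15.3% of all genes. Tfe3 was at 103, 94.9 and 86.9 CPM in the WT chow libraries and at 67.3, 78.6 and 62.0 in the WT HFD libraries, a fall without overlap (log2 -0.46 ± 0.15 SE, edgeR adjusted p = 0.0449). Mitf fell averaged over genotypes, from 75.1 ± 8.12 to 60.2 ± 6.04 CPM (SD, n = 6; log2 -0.32 ± 0.09, edgeR adjusted p = 0.0214), and Tfeb was at 46.2 ± 5.06 and 45.2 ± 2.91 CPM. After the length and GC correction 1 of the 4 WT calls was left, Tfe3 was at -0.23 (edgeR adjusted p = 0.118) and Mitf at -0.21 (adjusted p = 0.0393). The WT count was 7 without WT chow library 3, and without WT chow library 1 or 2, or WT HFD library 1 or 3, there were 0.

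Among the partners of cathepsins, Grn, the progranulin gene, fell with HFD in WT from 1599 ± 237 to 1027 ± 171 CPM (log2 -0.64 ± 0.16 SE, edgeR adjusted p = 0.0207), and Neu1 rose, so 1 of 5 moved each way; Neu1 was named after its value was seen. The Grn call was lost without WT chow library 1 or 2 or WT HFD library 1 or 3 (edgeR adjusted p 0.0621 to 0.103), and was kept with the length and GC correction (log2 -0.61). No partner rose without WT chow library 1 or 2, any single WT HFD library, meKO chow library 2 or meKO HFD library 3, or with library totals. Psap, the prosaposin gene, was at 32913 ± 491 CPM in WT on chow and 39716 ± 999 in meKO on chow (SD, n = 3), without overlap; it did not pass in edgeR (adjusted p = 0.189) and passed in DESeq2 (adjusted p = 0.0242). Lgmn, the asparaginyl endopeptidase that cleaves several cathepsins, was at 2470.1 ± 245 and 2944 ± 62.6 CPM in WT on chow and HFD; it did not pass in edgeR and passed in DESeq2. Of 7 other lysosomal proteases 1 rose, Dpp7, named after its value was seen, against 9.5% of all genes. That count was 0 without WT chow library 1 or 2 or any single WT HFD library and with the length and GC correction (Dpp7 log2 0.34, edgeR adjusted p = 0.0800), and it was 2 without WT chow library 3 and 3 in DESeq2. Of 13 lysosomal membrane genes 0 rose and 0 fell in WT in edgeR. At an unadjusted edgeR p under 0.05 there were 4, and the share of all genes at that threshold is not given here. DESeq2 called 1 higher and 2 lower, and edgeR without WT chow library 3 called 5 higher and 2 lower.

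Ctss, Ctsl and Ctsf act on the invariant chain, and genes of that pathway were lower with HFD. Of 4 class II processing genes, 3 fell in WT: Ciita, the class II transactivator, from 11.1 ± 2.85 to 3.02 ± 0.188 CPM (log2 -1.88 ± 0.27 SE, edgeR adjusted p = 0.00308), and Cd74, the invariant chain, from 808 ± 195 to 343 ± 20.5 CPM (log2 -1.24 ± 0.22, adjusted p = 0.00803). Corrected for length and GC they were at -1.44 and -1.44, both passing. B cell markers, whose cells also express these genes, summed to 123 to 197 CPM in WT on chow and 60 to 107 CPM in WT on HFD, and dendritic cell markers to 118 to 144 and 70.5 to 84.4 CPM. Their part in the Ciita and Cd74 values was not tested. The 7 lists from inhibitors to class II processing held 66 genes in the table. Of these, edgeR called 0 for genotype on chow, on HFD or averaged over diets, with diet in meKO or for the interaction. At an unadjusted edgeR p under 0.05 there were 22 for genotype on chow (background 19.8%) and 5 on HFD (4.56%). Averaged over diets there were 19, and the share of all genes at that threshold is not given here. With diet in meKO there were 14 (background 15.9%) and for the interaction 7 (6.13%). DESeq2 called 9 of the 66 for genotype on chow (background 5.05%), 0 on HFD and 6 averaged over diets (3.03%). With diet in meKO DESeq2 called 1 of the 66, among 226 of all genes, and for the interaction 0.

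Across the 12 libraries, the genes most like Ctsd in log2 CPM were Lamp1 (Pearson r 0.96), Tst (0.95) and Hexa (0.94). For Ctsb they were Gusb (0.91), Psap (0.88) and Galns (0.87), and for Ctsl they were Dhrs1 (0.94), Grina (0.94) and Tpp1 (0.93). For Ctss they were Fam174a (0.98), Scp2 (0.98) and Vamp4 (0.97). Among the cathepsins the closest pair was Ctsd and Ctsh (0.82) and the farthest Ctsf and Ctsk (-0.45). These are descriptions over 12 libraries that share depth, group and length dependence.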

How the data were processed

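RNA of 12 macrophage libraries was analysed from whole-number counts per gene that the authors deposited with Entrez identifiers and symbols; mm10 and DESeq2 are named in the submitters' processing notes, and the aligner, counter and strand setting are not given in the sources used here. The 186 genes without a symbol were kept in the fits. Counts were fitted with edgeR 4.0.16 (limma 3.58.1, R 4.3.3): TMM factors, filterByExpr, robust quasi-likelihood F tests on 4 group means over all 12 libraries, Benjamini-Hochberg adjustment over 12339 genes, threshold 0.05. Fold changes are log2. Pearson r used log2 CPM with a prior count of 2. Prkce was tested by exact permutation. Groups came from the labels; replicate numbers follow accession order and pair nothing. No replicate pair agreed within sampling noise. Alternatives were DESeq2 1.42.0, limma-voom, other scalings and filters, each library left out, and a correction for transcript length and GC (11532 genes, 93.5%, lengths from GENCODE transcripts linked to RefSeq). That transcript choice replaced the longest coding transcript after the first corrected values were seen, and both are given.

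Members and lists were chosen with earlier results of these data known. Named genes were the 10 cathepsins, up to 5 called list genes with the smallest p per comparison, Cst3, Cstb, Lgmn, Psap, Grn, Tfeb, Tfe3, Mitf and Cd74, and the 3 genes most correlated with Ctsb, Ctsd, Ctsl and Ctss. The test was checked on simulated counts. Positions, promoter windows and overlaps are from RefSeq on GRCm38.p6, which is the mm10 assembly; all 10 members matched by Entrez identifier.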

Additional observations from a re-analysis of the deposited data

How the results depend on the processing

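No paired analysis was possible because the labels give no replicate numbers shared between groups. The edgeR calls reported above were 10 (chow genotype), 10 (HFD genotype), 2634 (WT diet), 13 (meKO diet), 21 (mean genotype, averaged over diets), 3721 (mean diet, averaged over genotypes) and 2 (interaction) genes. With library totals, the gene count was 2 (chow genotype), and the cathepsin count 1 (WT diet). With DESeq2, the gene count was 563 (chow genotype), 53 (HFD genotype), 3438 (WT diet), 226 (meKO diet), 366 (mean genotype) and 15 (interaction), and the cathepsin count 3 (chow genotype), 3 (WT diet) and 2 (mean genotype). With limma-voom, the gene count was 2 (chow genotype) and 5 (HFD genotype). With voom and quality weights, the gene count was 4047 (chow genotype), 128 (HFD genotype), 6411 (WT diet), 398 (meKO diet), 3835 (mean genotype), 6298 (mean diet) and 295 (interaction), and the cathepsin count 7 (chow genotype), 3 (WT diet), 1 (meKO diet), 7 (mean genotype) and 5 (mean diet). With non-robust dispersions, the gene count was 2 (chow genotype). With only the groups compared, the gene count was 5 (chow genotype), 34 (HFD genotype) and 1 (meKO diet), and the cathepsin count 1 (WT diet). With the length and GC correction, the gene count was 2 (chow genotype), 1426 (WT diet) and 83 (meKO diet), and the cathepsin count 1 (WT diet) and 0 (mean genotype). With the longest coding transcript in that correction, the gene count was 3 (chow genotype), 1446 (WT diet) and 77 (meKO diet), and the cathepsin count 1 (chow genotype). With at least 10 counts in every library, the gene count was 1 (interaction). Leaving out 1 library at a time gave 2 to 2543 (chow genotype), 3 to 16 (HFD genotype), 96 to 4921 (WT diet), 1 to 135 (meKO diet), 8 to 1400 (mean genotype), 1957 to 5326 (mean diet) and 1 to 56 (interaction) genes, and 0 to 5 (chow genotype), 0 to 3 (WT diet), 0 to 4 (mean genotype) and 1 to 4 (mean diet) cathepsins. Without WT chow library 3, Ctsl, Ctsk, Ctsd and Ctsh were called for mean genotype, and Ctss joined the calls for WT diet and mean diet. No cathepsin was called for WT diet without WT chow library 1, WT chow library 2 or WT HFD library 3. The mean diet call of Ctsl was lost without any WT HFD library, WT chow library 1, meKO HFD library 2 or 3, or meKO chow library 1 or 3, with library totals and with the length and GC correction. The cause of the difference in length dependence among WT chow libraries was not tested. TMM factors computed without the 10 cathepsins, and the longest coding transcript, were chosen after seeing the data. Sign changes were limited to values that had not passed. With the length and GC correction, the log2 values that turned sign were Ctsa 0.16, Ctsh -0.12, Ctss -0.053, Ctsz -0.0055, Psap 0.043 (WT diet), Ctsa 0.073, Ctsb 0.13, Ctsh -0.14, Ctss -0.068, Ctsz -0.019, Tfeb 0.013 (mean diet), Ctsc 0.011 (interaction), Ctsf -0.0082, Ctss -0.070 (chow genotype), Ctsk -0.011 (HFD genotype), Ctss -0.083, Ctsz -0.032 (meKO diet) and Ctss -0.085 (mean genotype). With the longest coding transcript in that correction, the log2 values that turned sign were Ctsa 0.15, Ctsc -0.0030, Ctsh -0.14, Ctss -0.066, Ctsz -0.015, Psap 0.027 (WT diet), Ctsa 0.066, Ctsb 0.13, Ctsh -0.15, Ctss -0.078, Ctsz -0.028, Tfeb 0.0073 (mean diet), Ctsc 0.018 (interaction), Ctsf -0.010, Ctss -0.081 (chow genotype), Ctsk -0.016 (HFD genotype), Ctss -0.090, Ctsz -0.041 (meKO diet) and Ctss -0.093 (mean genotype). With library totals, the log2 values that turned sign were Ctsb -0.054, Ctsc -0.029 (WT diet), Ctsc -0.012 (meKO diet), Ctsc -0.020, Ctsh -0.031 (mean diet) and Ctsc 0.017 (interaction). With voom and quality weights, the log2 values that turned sign were Ctsd 0.039 (mean diet), Ctsf 0.0035 (mean genotype) and Ctsh 0.018 (meKO diet). With limma-voom, the log2 values that turned sign were Ctsf 0.00039 (mean genotype). With 1 library left out, the values that turned sign ranged over Ctsc -0.038 to 0.16, Ctsk -0.023 to 0.14, Ctss -0.15 to 0.015 (HFD genotype), Ctsc -0.023 to 0.14, Psap -0.064 to 0.029 (WT diet), Ctsc -0.066 to 0.13, Ctsh -0.15 to 0.033, Ctsz -0.039 to 0.11 (meKO diet), Ctsc -0.0044 to 0.093, Ctsd -0.052 to 0.032, Ctsh -0.021 to 0.11, Tfeb -0.071 to 0.039 (mean diet), Ctsc -0.13 to 0.076 (interaction), Ctsf -0.033 to 0.23 (chow genotype) and Ctsf -0.070 to 0.065 (mean genotype). Prkce kept its direction, from -1.26 to -1.03 (log2) with 1 library left out. Ctsf is limited by its 133 to 345 counts per library; the other cathepsins are limited by the spread between libraries.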

Other observations

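Of the 13 cathepsin genes outside the 10, 4 were in the table. Ctso was the most abundant of them, at 105 to 153 CPM. Ctse, an endosomal aspartic protease, was at 2.36 to 7.40 CPM, Ctsw, known from cytotoxic lymphocytes, at 1.13 to 2.94 CPM, and Ctsg, a neutrophil granule protease, at 0.311 to 1.65 CPM. None of the 4 was called in edgeR in the diet or the genotype comparison averaged over the other factor, and DESeq2 called 0 in both. At an unadjusted edgeR p under 0.05 there were 0 with diet and 1 with genotype, and the share of all genes is not given here. For genotype, 2 of the 4 log2 fold changes were positive. Ctsg was lower in meKO, at 0.548 ± 0.269 CPM on chow and 0.514 ± 0.154 on HFD (SD, n = 3). In WT it was at 1.21 ± 0.365 and 0.982 ± 0.584 CPM. Its values rest on 9 to 51 counts per library.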
